A study of Mus musculus with 9 samples.

Results

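The 7 crystallin genes Cryaa, Cryab, Cryba1, Cryba2, Cryba4, Crybb1 and Crybb3 and the lens transcription factor gene Foxe3 were followed in total RNA of mouse retinas at E12.5, an embryonic stage at which the lens lies in the mouth of the optic cup. They are named members of a lens gene set, picked by symbol, and are 8 of the 12388 gene symbols in the files. All 9 samples came from CD-1 embryos and carried GFP in at least one allele of Neurog2, a proneural transcription factor gene. The KI group (3 samples, genotype Neurog2GFP/Mash1KI) had a Mash1 knock-in at the other allele, the MUT group (3 samples, Neurog2GFP/GFP) had GFP at both alleles, and the HET group (3 samples, Neurog2GFP/+) kept one wild-type allele. The dissected material was GFP-positive optic cups, and no sort of the dissociated cells is named. The groups are called here as they are labelled.

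Crystallins are the abundant soluble proteins of the lens. The alpha crystallins Cryaa and Cryab belong to the small heat shock proteins and act as chaperones. Cryaa is largely a lens gene, whereas Cryab is also made in muscle, heart and glia. The beta crystallins are structural proteins that assemble with each other, in an acidic branch (Cryba1, Cryba2, Cryba4) and a basic branch (Crybb1, Crybb3). Foxe3 is a forkhead factor of the lens epithelium, needed in the mouse for the lens vesicle to close and separate from the surface ectoderm.

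The sequences just upstream of the RefSeq transcript starts of these genes are shown for letters they share. RefSeq promoters on GRCm38.p6, the same assembly as mm10, were found for 7 of the 8 genes, and Cryab had no entry. In the 250 bases before the transcript start, the letters TGCTGAC, the half-site bound by Maf factors, occurred in 4 of the 7 genes on the strand of the gene, against 3.81% of all 32851 promoters of the same length searched on both strands. Cryba4 held the letters at 2 places. The 5 matches are shown 5′ to 3′ with the half-site in capitals.
Cryaa, chr17:31677814-31677838, plus strand: cattccagcTGCTGACggtgcagcc
Cryba1, chr11:77725335-77725359, minus strand: aaaagagagTGCTGACagagccgct
Cryba4, chr5:112252685-112252709, minus strand: attccctagTGCTGACcctgggcaa
Cryba4, chr5:112252638-112252662, minus strand: aggcagagcTGCTGACatgtccact
Crybb1, chr5:112255727-112255751, plus strand: atccaggttTGCTGACccagctgcc

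The matches began 108 bases before the start in Cryaa, 57 in Cryba1, 182 and 135 in Cryba4 and 84 in Crybb1. For Cryaa the RefSeq start (31677931) lies inside the gene as annotated by GENCODE, which begins at 31677807. The Cryaa half-site thus falls within that annotated gene. Cryba2, Crybb3 and Foxe3 did not hold these letters in the window. The TATA box letters TATAAA were found in Cryba1 and Crybb1, 2 of 7 genes, against 12.4% of all promoters. The Sox letters AACAAT were found in Crybb1 alone, against 9.42%, and the forkhead letters TGTTTAC in none, against 3.17%. The E-box form CAGCTG, a palindrome of the kind bound by bHLH factors, lay in Cryaa, Cryba1, Cryba2 and Crybb1, against 13.0%, and in Cryaa it overlapped the half-site. All 5 motifs were searched on both strands, and a match is a description of letters, not of binding. The whole 250 bases are shown for Cryaa and Cryba1, the crystallins of highest level in KI and MUT retinas, and for Foxe3, with the half-site and TATA box letters in capitals.
Cryaa, chr17:31677681-31677930, plus strand: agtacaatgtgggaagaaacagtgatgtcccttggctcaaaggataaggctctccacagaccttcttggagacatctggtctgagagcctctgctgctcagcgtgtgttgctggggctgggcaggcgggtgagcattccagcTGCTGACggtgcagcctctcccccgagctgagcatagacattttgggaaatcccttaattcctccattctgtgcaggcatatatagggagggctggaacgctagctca
Cryba1, chr11:77725294-77725543, minus strand: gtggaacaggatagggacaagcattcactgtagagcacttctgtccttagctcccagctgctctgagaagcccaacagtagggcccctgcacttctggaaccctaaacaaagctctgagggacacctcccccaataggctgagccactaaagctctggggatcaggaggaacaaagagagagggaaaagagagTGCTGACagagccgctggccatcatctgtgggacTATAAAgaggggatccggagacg
Foxe3, chr4:114926068-114926317, minus strand: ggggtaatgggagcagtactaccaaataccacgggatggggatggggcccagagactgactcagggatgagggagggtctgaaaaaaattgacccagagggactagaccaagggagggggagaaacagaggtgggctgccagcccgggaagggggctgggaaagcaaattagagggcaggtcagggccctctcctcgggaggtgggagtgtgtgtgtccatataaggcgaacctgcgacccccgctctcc

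The files give 1 RPKM value for each transcript and group, a read density per transcript length and mapped reads. The 3 samples of a group were pooled into it, so no spread between samples can be printed, and sample depth is unknown. The one error estimate is the p and q that the authors deposited per transcript, and a transcript is called changed at a q of 0.05 or less. The first table sets MUT against HET and the second KI against MUT. Where a gene has several transcripts, its level below is their summed RPKM. The KI titles carry the number 311 and all MUT and HET titles the number 466. Nothing in the labels ties a sample to an animal or litter, so a p-value here measures the spread between these samples, which may be technical. Neurog2 itself was at 112 RPKM in KI and 35.5 RPKM in MUT in the second table, and at 36.2 RPKM in MUT and 30.2 RPKM in HET in the first. The tables do not split its signal into coding and other parts, so it does not check the labels. The 9 retinal progenitor markers were listed in both tables with no call (summed level 2369 RPKM in KI and 2488 RPKM in MUT).

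In KI retinas all 7 crystallins had higher values than in MUT retinas, against 49.7% of all genes. Of the 7, 2 passed the test, Cryab and Cryaa. Foxe3 was called too, but it was listed through its KI value alone, which fixed its direction, so it is left out of these counts. Of the 11989 genes tested there, 1.03% were called higher and 1.67% were called in either direction. At an unadjusted p under 0.05, 4 of the 7 were higher, against 8.56% of all genes. The median log2 ratio of the 7 crystallins, KI over MUT, was 1.50, against a median of -0.0021 and quartiles of -0.20 and 0.21 over 11930 genes. Summed over the 7, the crystallin level was 139.0 RPKM in KI and 40.5 RPKM in MUT, a 3.43-fold difference. In bulk tissue, more cells of a type and more RNA per cell cannot be told apart.

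**Figure D1:**
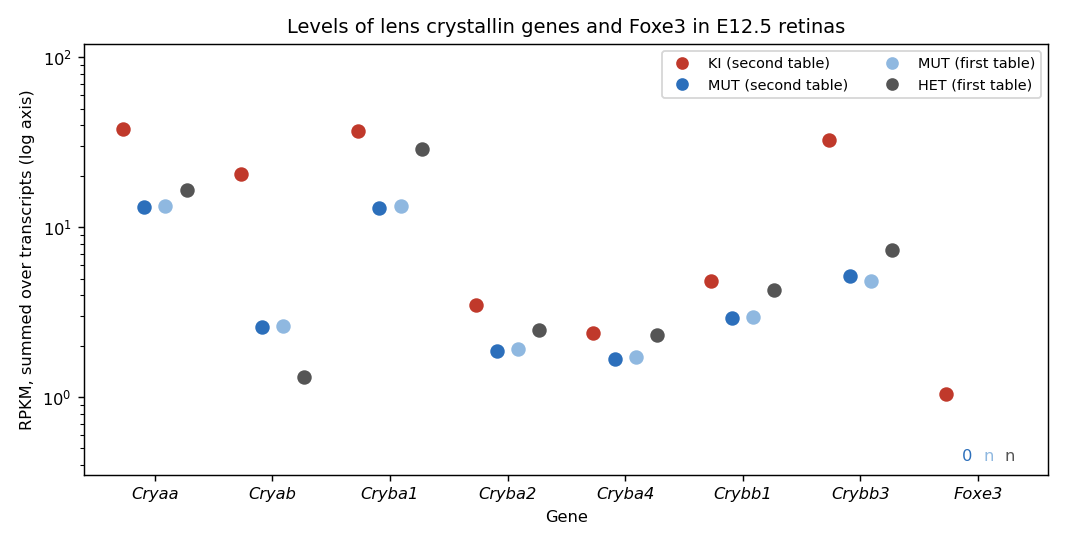
Summed RPKM (log axis) of each gene in KI and MUT (second table) and in MUT and HET (first table), 1 authors' value per group with no error bar; "0" marks a group listed at 0 and "n" a group of a table without the gene. KI is the highest point of each gene, and Cryab is the one crystallin that is lowest in HET, at 1.31 RPKM.

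Among the chaperones, Cryab (ENSMUSG00000032060, 3 exons on chromosome 9 of mm10 from 50751325 to 50756636) was at 20.7 RPKM in KI retinas and 2.58 RPKM in MUT retinas. It rose 8.01-fold, a log2 ratio of 3.00, with p = 5e-05 and a q of 0.0104 by the authors' deposited table. The ratio was the 39th highest of 11930 genes. Cryaa (ENSMUSG00000024041, chromosome 17, 31677807 to 31681733, 4 exons) was at 38.1 RPKM in KI and 13.2 RPKM in MUT. It rose 2.90-fold, a log2 ratio of 1.53, with the same p and q in the authors' deposited table, and ranked 160th. A p of 5e-05 is the smallest in this table and is shared by 128 transcripts, so it does not order Cryaa against Cryab. Whether their ratios differ was not tested. Hspb2, a small heat shock gene that overlaps Cryab on the opposite strand, was in neither table.

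The acidic beta crystallins had higher KI values without passing the test. Cryba1 (ENSMUSG00000000724, chromosome 11, 77718615 to 77725283, 6 exons) was at 36.9 RPKM in KI and 13.1 RPKM in MUT, a log2 ratio of 1.50 for which the authors' deposited table gives p = 0.134 and q = 0.783. Its level and ratio were thus close to those of Cryaa, which passed. Cryba1 lies inside Nufip2, a broadly expressed gene on the opposite strand, and the authors' locus spans both. None of the 778 exon bases of its main transcript overlaps an annotated Nufip2 exon (0 bases), and Nufip2 was at 33.7 RPKM in KI and 33.9 RPKM in MUT. Cryba2 (ENSMUSG00000006546, chromosome 1, 74889934 to 74893143, 5 exons) was at 3.48 RPKM in KI and 1.88 RPKM in MUT, a log2 ratio of 0.89 (p = 0.271 in the authors' deposited table, with q = 0.783). Cryba4 (ENSMUSG00000066975, chromosome 5, 112246493 to 112252518, 5 exons) was at 2.40 RPKM in KI and 1.68 RPKM in MUT. Its log2 ratio of 0.51 was the smallest of the 7, and the authors' deposited table gives it p = 0.266 and q = 0.783.

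Of the basic branch, Crybb3 (ENSMUSG00000029352, chromosome 5, 113075839 to 113081584, 5 exons) had the second largest ratio, with a summed level of 32.6 RPKM in KI and 5.19 RPKM in MUT, a log2 ratio of 2.65. No single transcript of it passed the test. The main one was at 21.7 RPKM in KI and 2.50 RPKM in MUT (p = 0.0406, with q = 0.661 by the authors' deposited table). The next was at 7.46 RPKM in KI and 0.442 RPKM in MUT (the authors' p = 0.169). Both thus lay higher in KI. The latter was under the lowest listed level of 1.04 RPKM in MUT, so its direction was fixed by the listing. Another was at 3.37 RPKM in KI and listed at 0 in MUT, and the last was at 0.00264 RPKM in KI and 2.25 RPKM in MUT, with p = 0.141 and p = 0.251 in the authors' deposited table. The last transcript went the other way. The former of these was listed through KI alone and the last through MUT alone, which fixed their directions. Reads of one gene were divided among these transcripts, and the deposited test was made on each, not on the sum. Crybb1 (ENSMUSG00000029343, chromosome 5, 112255815 to 112269585, 6 exons) was at 4.83 RPKM in KI and 2.91 RPKM in MUT, a log2 ratio of 0.73 (p = 0.0403 by the authors' deposited table, with q = 0.660). It starts 3296 bases from Cryba4, which is read the other way, and the neighbours had the 2 smallest ratios of the 7. Crybb2, which lies 5721 bases from Crybb3, was in neither table.

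**Figure D2:**
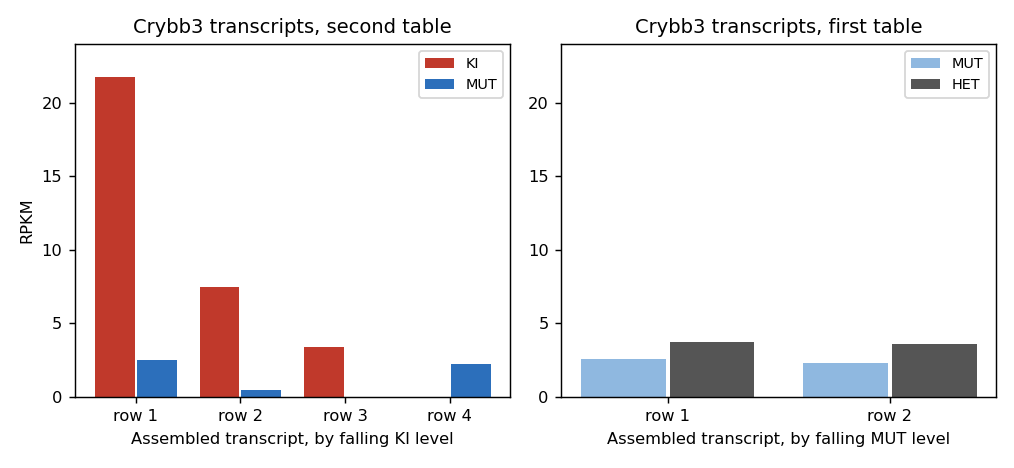
RPKM of each Crybb3 transcript in KI and MUT (second table, left) and in MUT and HET (first table, right), 1 authors' value per group with no error bar. The KI level lies mostly in 1 transcript at 21.7 RPKM, and 1 transcript has 2.25 RPKM in MUT and almost none in KI.

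Foxe3 (ENSMUSG00000044518, chromosome 4, 114925147 to 114926013, 1 exon) was listed at 1.05 RPKM in KI retinas and at 0 in MUT retinas, and was called, with p = 5e-05 and a q of 0.0104 by the authors' deposited table. No fold can be given against a group at 0. Foxe3 is in the second table only. The lowest level that table lists in the higher group of a row is 1.04 RPKM, so Foxe3 stands at the edge of what is listed, through its KI value. A gene that enters a table in this way had to differ. Its level ranked 11655th of 11989 genes in KI. Of the 466 rows with MUT at 0, that of Foxe3 was the one called.

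**Figure D3:**
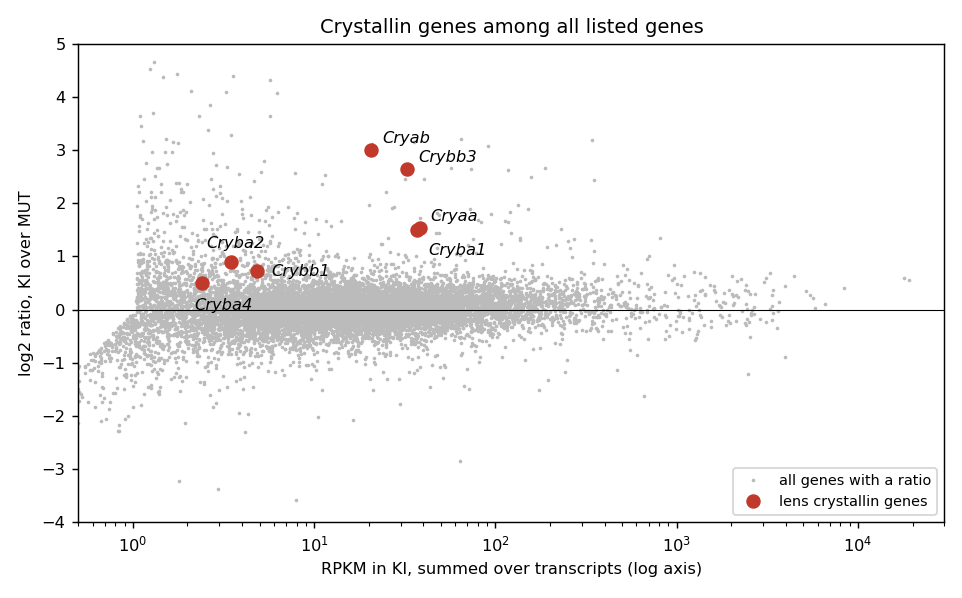
Log2 ratio of summed RPKM, KI over MUT, against the RPKM in KI (log axis) for 11842 genes (grey), with the 7 crystallins in red; 88 genes fall outside the axes and Foxe3 has no ratio. All 7 red points lie above 0, from Cryba4 at 0.51 to Crybb3 at 2.65 and Cryab at 3.00.

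In MUT against HET retinas, 6 of the 7 listed crystallins had lower values in MUT, against 45.4% of all genes. The remaining 1, Cryab, had a higher value, and none of the 7 passed the test. Cryba4 was among the lower ones only through a transcript listed through its HET value alone, which fixed the direction of that transcript. Of the 12247 genes here, 1.34% were called. At an unadjusted p under 0.05, 1 of the 7, Cryab, differed, against 10.9% of all genes. At a q of 0.10 or less the count was still 0, against 1.69% of all genes, and in KI against MUT it was still 2 without Foxe3, against 2.54%. The median log2 ratio of the 7, MUT over HET, was -0.42, with quartiles of -0.17 and 0.21 over all genes. This median is the ratio of Cryba4, and it was -0.39 with the most abundant transcript of each gene. The summed level was 40.8 RPKM in MUT and 63.3 RPKM in HET. Foxe3 is not in this table.

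Cryab was at 2.63 RPKM in MUT and 1.31 RPKM in HET, a log2 ratio of 1.0, for which the authors' deposited table gives p = 0.0058 and q = 0.344. Its ratio was the 158th highest of 12197. Cryaa was at 13.4 RPKM in MUT and 16.6 RPKM in HET, a log2 ratio of -0.31 (p = 0.106 by the authors' deposited table, with q = 0.993). The alpha crystallins thus had values on opposite sides, a difference that was not tested. Cryba1 was at 13.3 RPKM in MUT and 28.9 RPKM in HET, a log2 ratio of -1.12 with p = 0.316 and q = 0.993 in the authors' deposited table. Nufip2 around it was at 33.9 RPKM in MUT and 36.6 RPKM in HET. The Cryba1 ratio was the 220th lowest of 12197, yet its p was larger than that of Cryaa, whose ratio was nearer to 0.

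Cryba2 was at 1.91 RPKM in MUT and 2.51 RPKM in HET, and Crybb1 at 2.97 RPKM in MUT and 4.26 RPKM in HET, with p = 0.535 and p = 0.253 in the authors' deposited table. Crybb3 had 2 transcripts in this table, at 2.55 and 2.29 RPKM in MUT and at 3.73 and 3.62 RPKM in HET (the authors' p = 0.564 and 0.436). All of these were lower in MUT. Cryba4 had 2 as well, of which the authors gave p = 0.485 to the first and p = 0.344 to the other. The first was at 1.72 RPKM in MUT and 1.27 RPKM in HET, and the other at 0.00519 RPKM in MUT and 1.04 RPKM in HET. With MUT under the lowest listed level of 0.906 RPKM, the other was listed through HET alone, which fixed its direction. The transcripts of Cryba4 therefore differed in sign, and their sum was 1.72 RPKM in MUT and 2.31 RPKM in HET. By its most abundant transcript alone Cryba4 would be higher in MUT, at a log2 ratio of 0.44.

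**Figure D4:**
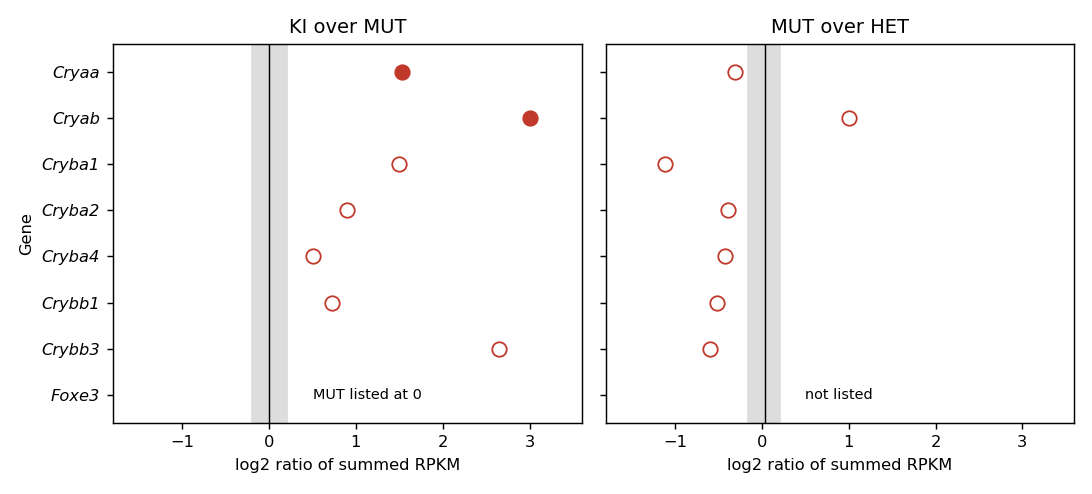
Log2 ratio of summed RPKM for each gene, KI over MUT (left) and MUT over HET (right); filled points passed the authors' test, the line is the median of all genes and the grey band their middle quartiles. All 7 crystallins lie right of the band for KI over MUT, and 6 lie left of it for MUT over HET, with Cryab on the right. Cryba4 lies left only through a transcript listed through HET alone.

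The comparisons share the MUT samples, so a low MUT value moves their ratios in opposite directions, and the authors deposited no test of KI against HET. KI and HET levels from the separately normalized tables were set side by side for the 7 crystallins. Over 11848 genes in both tables the MUT values of the tables differed by a median of 0.03 on the log2 scale, and for the 7 by -0.10 (Crybb3) to 0.03. Cryab was at 20.7 RPKM in KI and 1.31 RPKM in HET, and Crybb3 at 32.6 RPKM in KI and 7.35 RPKM in HET. Cryaa was at 38.1 RPKM in KI and 16.6 RPKM in HET. These 3 had log2 ratios, KI over HET, of 3.98, 2.15 and 1.20. The others were nearer to each other, from 0.05 for Cryba4 to 0.48 for Cryba2. Cryba1 was at 36.9 RPKM in KI and 28.9 RPKM in HET, and Crybb1 at 4.83 RPKM in KI and 4.26 RPKM in HET. The median over the 7 was 0.48, against -0.0034 over 11803 genes with a ratio. The sums cover unlike sets of transcripts for Crybb3 (4 in the second table and 2 in the first) and for Cryba4 (1 and 2). Of the Cryba4 level of 2.31 RPKM in HET, 1.04 RPKM came from the transcript listed through HET alone. The ratios of Crybb3 and Cryba4, and the median that includes them, thus do not compare like transcripts.

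RPKM is a level per length, so the crystallins can be set against each other within a group. The shares below carry no error estimate, and their differences between groups were not tested. Cryaa led in KI with 27.4% of the summed level of the 7, followed by Cryba1 with 26.6%, Crybb3 with 23.4% and Cryab with 14.9%. In MUT (second table) Cryaa and Cryba1 held 32.5% and 32.3%, Crybb3 12.8% and Cryab 6.37%. In HET Cryba1 led with 45.7%, Cryaa held 26.3%, Crybb3 11.6%, and Cryab was last with 2.08%. The alpha crystallins together made up 42.3% in KI, 38.9% in MUT (39.3% in the first table) and 28.4% in HET. Crybb1, Cryba2 and Cryba4 stayed at 7.28% or less each in every group. With no values per sample, the orders cannot be set against error either.

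Other lens genes were taken from a list of 36. Of these 20 were listed in the second table, where 12 had higher and 8 lower values in KI than in MUT, none was called higher and 1 was called lower. The 20 had a median log2 ratio of 0.21, against -0.0021 over all genes of the table. The list mixes genes that the retina also makes in quantity, such as Pax6 at 291 RPKM in KI and 333 RPKM in MUT and Six3 at 115 RPKM in KI and 96.8 RPKM in MUT, with genes known mainly from lens. The gamma crystallins are fibre cell proteins encoded by near-identical neighbours, so the reads of single genes are uncertain. Of 5 listed, 4 had higher KI values, and among these the direction of Crygd was fixed by its listing through KI alone. The summed level of the 5 was 48.6 RPKM in KI and 26.8 RPKM in MUT, with no call (lowest q = 0.0736 in the authors' deposited table, for Cryge). Cryge was at 23.4 RPKM in KI and 13.9 RPKM in MUT, and Cryga at 16.6 RPKM in KI and 8.46 RPKM in MUT (q = 0.0918 by the same authors' table). Between MUT and HET the gamma crystallins did not share the lower MUT values of most members. Of 4 listed there, 3 were higher in MUT, with a median log2 ratio of 0.14 and no call. Cryga was lower, at 8.63 RPKM in MUT and 14.6 RPKM in HET (q = 0.357 in the authors' deposited table). The sum of the 4 was 25.7 RPKM in MUT and 29.7 RPKM in HET.

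The lens connexin gene Gja3, whose product forms channels between fibre cells, was at 1.52 RPKM in KI and 0.399 RPKM in MUT (q = 0.0717 in the authors' deposited table). Lim2, a membrane protein of lens fibres, was at 1.81 RPKM in KI and 0.347 RPKM in MUT (q = 0.783 by the authors' deposited table). Gja3, Lim2 and Crygd were in the second table only, which they entered through their KI values. Of the other 17 lens genes 9 had higher and 8 lower KI values, with a median log2 ratio of 0.11. The called gene was Gje1, of the connexin family, at 34.0 RPKM in KI and 51.4 RPKM in MUT (q = 0.0413 by the authors' deposited table). It fell in KI and was the one call of the list in MUT against HET, where it rose (52.4 RPKM in MUT and 20.7 RPKM in HET, q = 0.0109 in the authors' deposited table). Its course was opposite to that of the 6 crystallins with lower MUT values. Of the list of 36, 17 were listed in MUT against HET, where 12 had higher and 5 lower MUT values. Over all genes there, 54.6% had higher MUT values. The median log2 ratio of the 17, MUT over HET, was 0.05, against 0.03 over all genes. The fibre cell genes Mip, Bfsp1 and Bfsp2 were in neither table. Maf, the factor whose half-site was searched above, was at 1.47 RPKM in KI and 1.36 RPKM in MUT (q = 0.898 by the authors' deposited table).

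Markers of other tissues around the optic cup were also higher in KI than in MUT. Many of them were listed through KI alone, with MUT under the lowest listed level of 1.04 RPKM, so that their direction was fixed by the listing. All 10 listed pigment epithelium markers of 12 were higher in KI, 6 of them called, with a median log2 ratio of 2.87 and a summed level of 96.2 RPKM in KI and 19.6 RPKM in MUT. Of these, 6 were listed through KI alone, and the other 4 were all called, with a median of 2.41 (77.1 RPKM in KI and 17.1 RPKM in MUT in sum). All 7 listed blood markers of 10 were higher, 2 called (131 RPKM in KI and 35.1 RPKM in MUT), and 5 of them were listed through KI alone. The other 2 were the called ones (119.7 RPKM in KI and 32.5 RPKM in MUT in sum). All 6 listed markers of periocular mesenchyme of 10 were higher, 1 called (33.9 RPKM in KI and 19.7 RPKM in MUT), and 3 were listed through KI alone. Both listed surface ectoderm markers of 9 were higher, with Krt18 called at 8.06 RPKM in KI and 2.28 RPKM in MUT. The other, Epcam, was nearly level, at 8.72 RPKM in KI and 7.90 RPKM in MUT, a log2 ratio of 0.14 with no call. No listed marker of these 4 lists was at 0 in either group. Rpe65, Foxc1, Krt5 and Trp63 were not listed. Their part in the crystallin values was not tested. In MUT against HET the pigment epithelium, mesenchyme, blood and surface ectoderm lists had no call, while 8 of the 11 ganglion cell markers were called lower in MUT (534 RPKM in MUT and 993 RPKM in HET in sum).

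**Figure D5:**
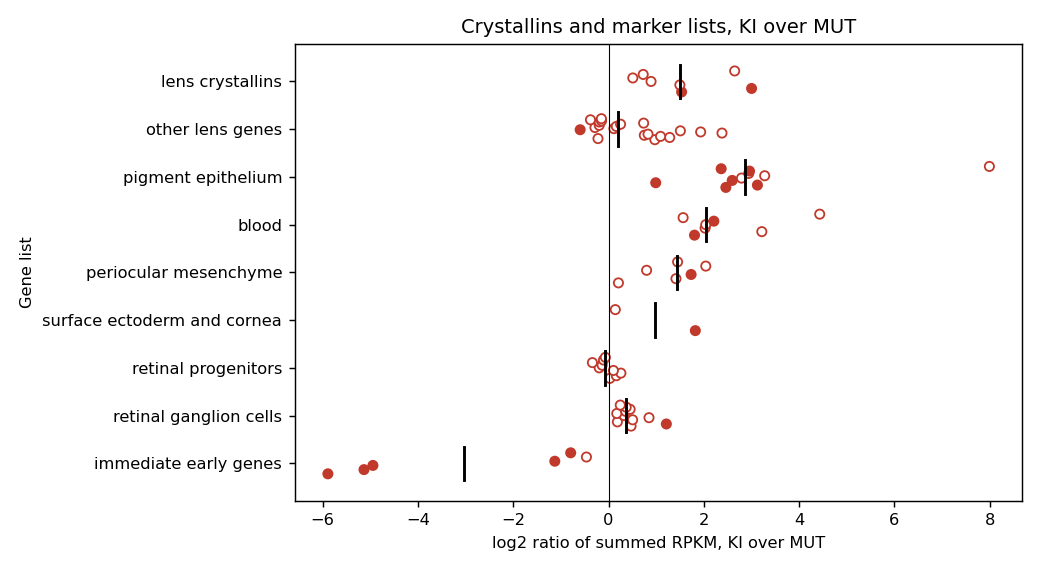
Log2 ratio of summed RPKM, KI over MUT, for each listed gene of the crystallins and 8 other lists; filled points passed the authors' test and the bar is the list's median. The crystallins (median 1.50) lie on the same side as pigment epithelium (2.87), blood (2.04) and mesenchyme (1.43), the retinal progenitor markers lie about 0 (-0.07), and immediate early genes lie below it (-3.04). Listing through KI alone fixed the side of 6 of 10 pigment epithelium, 5 of 7 blood and 3 of 6 mesenchyme genes, and listing through MUT alone that of 3 of 6 immediate early genes.

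Of 8 immediate early genes, 6 were listed, all with lower KI values, and 5 were called lower (46.1 RPKM in KI and 155 RPKM in MUT in sum). Of these 6, 3 were listed through MUT alone, and 2 of the other 3 were called lower. Retinal ganglion cell markers had higher KI values in 11 of 11 and 1 call, with a median of 0.37. The 4 Y-linked genes, listed through KI alone, were at 8.81 to 28.6 RPKM in KI and at 0 to 0.0165 RPKM in MUT. All 4 were also lower in MUT than in HET, where Eif2s3y was at 21.9 RPKM. HET alone brought them into that comparison, which fixed their direction there too, and none was called in either comparison. Xist, also on the sex-linked list, was at 174 RPKM in KI and 496 RPKM in MUT. In the first table it was at 505 RPKM in MUT and 184 RPKM in HET, with no call in either comparison. The title number, sex-linked levels and genotype cannot be told apart between KI and MUT. Between MUT and HET, which share the title number, sex-linked levels and genotype cannot be told apart either. The part of each in the crystallin values was not tested.

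The genes whose pair of ratios lay nearest to the crystallin medians, among 11520 compared over the 3 groups, were Timp3, an inhibitor of matrix proteases, and Col3a1, a fibrillar collagen gene that is also in the mesenchyme list. Timp3 was at 2.26 RPKM in KI, 0.854 RPKM in MUT (second table) and 1.14 RPKM in HET, at a distance of 0.0967 in log2 units. Col3a1 was at 10.6 RPKM in KI, 3.96 RPKM in MUT (second table) and 5.80 RPKM in HET, at a distance of 0.131. The next 4 were Gm25047, 1700016D06Rik, Zmat4 and Gmppb, at distances up to 0.212. None of the 6 was called in either comparison, and with 2 ratios per gene many genes can lie this near.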

How the data were processed

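Total RNA of dissected E12.5 optic cups was sequenced in 9 samples, 3 per genotype, which the labels give. Libraries were made with a TruSeq RNA kit, per the labels' protocols, and no strand setting is given in the sources used here. Per the submitters' processing notes, Bowtie2, Cufflinks and Cuffdiff were used on mm10, with each version not given in the sources used here. As deposited by the authors, there is 1 table per comparison, with an RPKM value for each assembled transcript and group, pooled over samples. The deposited p-value and q-value of each row are the authors' test. Recomputed Benjamini-Hochberg values equalled the deposited q-values to within 5.26e-07.

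Computed here with Python 3.11.15, pandas 2.3.3 and numpy 2.4.6 were the sums over the transcripts of a symbol, the log2 ratios without pseudocount (genes at 0 in a group left out), ranks, list counts and motif matches. Coordinates of genes, exons and identifiers are from GENCODE M21 on the same assembly. The adjustment was tested on simulated data. The rule for named genes takes all 8 genes, other lens genes that were called or else the most abundant, the lists' called markers, genes of overlapping loci, and the 6 genes nearest in pattern with at least 1 RPKM in KI. Pax6, Six3, Gja3, Lim2, Cryga, Cryge, Maf and the genes said to be not listed were named after their values were seen. The members, lists and motifs were chosen with earlier results of these data known.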

Additional observations from a re-analysis of the deposited data

How the results depend on the processing

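No paired analysis was possible because the tables hold 1 pooled value per group, and for the same reason no replicate could be left out. With Foxe3 included, although the listing fixed its direction, the number of genes called was 0 in MUT against HET and 3 in KI against MUT. These counts were the same under a q threshold of 0.10 and with the most abundant transcript of each gene. Of all genes, 1.34% in MUT against HET and 1.67% in KI against MUT were called at a q of 0.05, and 1.69% and 2.54% at 0.10. With rows of at least 5 RPKM adjusted again, which drops Foxe3 at 1.05 RPKM, the number was 0 in MUT against HET and 2 in KI against MUT. In KI against MUT it was also 2 without Foxe3, an alternative added after seeing the data. Of 59 ratios and medians recomputed, 1 changed direction. This was Cryba4 by its most abundant transcript, an alternative added for single genes after seeing the data. Its log2 ratio, MUT over HET, was then 0.44, against -0.42 for the sum. Many of the 59 could not change direction, so their number does not measure stability. A pseudocount keeps the sign of a single gene's ratio, and a gene with 1 transcript keeps its value by its most abundant transcript. Several transcripts were listed only for Crybb3 in both comparisons and for Cryba4 in MUT against HET. Medians that moved by 0.1 or more on the log2 scale were as follows. With a pseudocount of 1 RPKM they were 1.23 for KI over MUT, -0.29 for MUT over HET and 0.36 for KI over HET. For genes of at least 5 RPKM they were 2.09 for KI over MUT and -0.60 for MUT over HET. Without Cryba1, an alternative chosen after seeing the data, they were 1.21 for KI over MUT and 0.84 for KI over HET, since the median then falls between other genes. Depth is unknown, so low genes such as Foxe3, Cryba4 and Cryba2 carry no interval.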

Other observations

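Genes with crystallin in their name that do not encode lens structural proteins had 1 call. Crybg3, a large protein with crystallin-like domains, had a transcript that fell in MUT against HET, at 3.27 RPKM in MUT and 8.83 RPKM in HET (q = 0.0109 in the authors' deposited table). Summed over its 3 transcripts it was at 8.75 RPKM in MUT and 15.2 RPKM in HET, and in the second table at 11.9 RPKM in KI and 8.58 RPKM in MUT, without a call (lowest q = 0.0506 in the authors' deposited table). Cryz and Cryzl1, enzymes related to quinone reductases, were at 20.6 and 46.8 RPKM in KI and at 19.1 and 45.2 RPKM in MUT, with no call. Crym, which binds thyroid hormone and was listed through KI alone, was at 1.83 RPKM in KI and 0.395 RPKM in MUT (the authors' deposited q = 0.118), and Cryl1, a sugar-metabolizing enzyme, at 1.31 RPKM in KI and 2.85 RPKM in MUT (the authors' q = 0.175).

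Among the other small heat shock genes, the family to which Cryab belongs, 2 of 6 were listed. Hspb8 was at 1.42 RPKM in KI and 0.676 RPKM in MUT (p = 0.0235, q = 0.521 in the authors' deposited table). It was listed through KI alone there. In the first table, where HET alone brought it in, it was at 0.689 RPKM in MUT and 1.67 RPKM in HET (the authors' p = 0.00515, q = 0.317). Hspb6 was at 7.91 RPKM in KI and 9.10 RPKM in MUT, with no call.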
